A study of Mus musculus with 81 samples.

Results

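The genes described are Postn, Stra6l, Myof, Fxyd6, Klrb1a, Rnf186, Asb11, Gpr83 and Igf2r, 9 of the 25124 genes counted in microglia sorted from mouse brain. They were chosen by their measured difference between microglia positive for both CD229 and CD11c (CD11cpos) and microglia positive for CD229 but not CD11c (CD229pos), a difference called the CD11c step here. Because that difference chose them, it is described without a test, and the tests concern diet, the other gates and genotype. All 9 symbols were found in every table used.

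The 81 libraries came from adult male C57BL/6 mice and fell into 28 groups of genotype, diet and gate, with 2 to 4 libraries each. Sorted cells were from the brains of 2 to 6 mice pooled per sort. Mice ate regular chow (baseline) or 0.2% cuprizone, which binds copper and leads to the death of oligodendrocytes and the loss of myelin, for 4, 5 or 6 weeks. Trem2KO mice, without the lipid-sensing receptor Trem2, were compared with WT mice at baseline and 4 weeks. Mef2aKO mice (Cx3cr1CreERT2/WT::Mef2afl/fl) were compared with Cre mice (Cx3cr1CreERT2/WT) at baseline and 5 weeks. Egr2KO mice (Cx3cr1CreERT2/WT::Egr2fl/fl) were compared with Cre mice at baseline, at 6 weeks and, for whole microglia not split by CD229 or CD11c, at 5 weeks. The Cre, Mef2aKO and Egr2KO mice therefore all carried 1 CreERT2 allele in Cx3cr1, a gene of microglia and other brain macrophages, and the timing of tamoxifen is not given in the sources used here.

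Gates differed between the time points. At 4 and 6 weeks cells were split into CD229neg (negative for CD229 and CD11c), CD229pos and CD11cpos. At 5 weeks the gates were nested: Clec7aneg cells were negative for Clec7a, CD229 and CD11c, Clec7apos cells had Clec7a alone, CD229pos cells had Clec7a and CD229, and CD11cpos cells had all 3. Baseline and whole microglia were gated as low for CD44, CD45 and CD11b, so a comparison of a cuprizone gate with baseline mixes diet and gate. No Trem2KO CD11cpos group was analysed here.

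CD11c, encoded by Itgax, marks a subset of activated microglia that gathers where myelin is lost or remade, and Clec7a and CD229 (Ly9) are further surface proteins of activated microglia. Periostin, the product of Postn, is a secreted matricellular protein that binds integrins and is best known from fibroblasts, bone and injured tissue. The other proteins are a retinol carrier receptor of the membrane, a sorting receptor for lysosomal enzymes, 2 signalling receptors, 2 membrane proteins and 2 parts of ubiquitin ligases.

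Total counts ran from 4387075 to 13972985 per library, and levels are read counts scaled to a common library total (CPM). The 8 microglial marker genes were detected in every group and summed to 8455 to 9045 CPM in WT CD11cpos cells. Trem2 lay at 146 to 165 CPM in Trem2KO CD229pos cells and 596 to 650.1 CPM in WT CD229pos cells. Counts over the whole Mef2a gene were 566 to 597 CPM in Mef2aKO CD11cpos cells and 563 to 615 CPM in Cre CD11cpos cells, and cannot show the loss of single exons. In Egr2KO whole microglia Egr2 lay at 18.4 to 26.5 CPM, against 65.2 to 68.8 CPM in Cre whole microglia, and this was called (adjusted p = 3.94e-05). Egr2 was not called lower in the gates at 6 weeks, with 76.7 to 90.0 CPM in Egr2KO CD11cpos cells and 97.6 to 121 CPM in Cre CD11cpos cells (adjusted p = 0.487), and adjusted p of 0.286 in CD229neg and 0.103 in CD229pos cells.

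Stretches around the annotated starts of 4 of the 9 genes are shown because they are the first start of the leading gene and the 3 others in which a searched motif was found at the counted transcript. RefSeq promoter windows of build GRCm38.p6 (250 bases before to 50 after the start) matched 9 of 9 genes. Both strands were searched for GAGGAA (core of the macrophage factor PU.1), TGANTCA (AP-1), CACGTG (E-box of the MiT/TFE factors), GCGGGGGCG and GCGTGGGCG (EGR factors) and CTA followed by TAG with 4 free bases between them (MEF2 factors). Capitals mark matches. The Postn window is chr3:54359017-54359316 on the + strand, Rnf186 chr4:138966869-138967168 on the + strand, Klrb1a chr6:128622885-128623184 on the - strand and Igf2r chr17:12769657-12769956 on the - strand.
Postn: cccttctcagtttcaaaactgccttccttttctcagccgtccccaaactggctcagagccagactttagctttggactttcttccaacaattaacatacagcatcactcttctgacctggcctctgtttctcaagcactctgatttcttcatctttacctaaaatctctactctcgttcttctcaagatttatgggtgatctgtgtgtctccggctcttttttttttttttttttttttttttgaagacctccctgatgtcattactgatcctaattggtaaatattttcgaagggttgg
Rnf186: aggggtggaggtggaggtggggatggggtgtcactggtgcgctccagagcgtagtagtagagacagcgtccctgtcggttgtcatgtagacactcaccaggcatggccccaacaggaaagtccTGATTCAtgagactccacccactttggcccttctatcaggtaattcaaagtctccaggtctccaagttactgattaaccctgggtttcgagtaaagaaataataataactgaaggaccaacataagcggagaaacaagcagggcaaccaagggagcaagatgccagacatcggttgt
Klrb1a: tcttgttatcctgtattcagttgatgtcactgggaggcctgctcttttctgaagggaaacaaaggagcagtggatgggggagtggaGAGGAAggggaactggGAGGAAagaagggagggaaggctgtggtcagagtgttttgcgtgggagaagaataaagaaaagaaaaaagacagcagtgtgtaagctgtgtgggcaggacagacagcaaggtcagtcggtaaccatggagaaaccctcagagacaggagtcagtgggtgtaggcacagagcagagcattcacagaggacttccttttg
Igf2r: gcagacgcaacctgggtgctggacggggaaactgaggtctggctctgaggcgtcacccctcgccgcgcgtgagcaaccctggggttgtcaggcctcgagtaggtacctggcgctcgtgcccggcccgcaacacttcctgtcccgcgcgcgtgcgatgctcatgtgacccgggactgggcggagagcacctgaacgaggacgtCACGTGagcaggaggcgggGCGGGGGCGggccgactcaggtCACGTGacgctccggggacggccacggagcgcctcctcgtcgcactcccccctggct

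The first Postn window held none of these letters, and a second annotated Postn start had 1 GAGGAA after it, at +41 from that start. The Rnf186 window held 1 TGANTCA at -127. The Klrb1a window held GAGGAA at -164 and -148. The Igf2r window held CACGTG at -48 and -7 with GCGGGGGCG between them at -29, and these matches did not overlap. The windows of Stra6l, Myof, Fxyd6, Asb11 and Gpr83 held none, and the MEF2 letters were in no window of the 9 genes. Of 32851 promoters of the same length, 28.3% held GAGGAA, 7.81% TGANTCA, 7.15% CACGTG, 2.91% GCGGGGGCG, 0.612% GCGTGGGCG and 3.69% the MEF2 letters.

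Postn (chr3:54359267-54391041, + strand, mm10) had a high level in CD11cpos cells and a low one in every other gate. In WT mice it had 18.9, 17.3 and 15.8 CPM at baseline. After 4 weeks of cuprizone it had 8.41, 11.7 and 11.3 CPM in CD229neg cells, 6.82, 5.81 and 7.6 CPM in CD229pos cells and 144, 167 and 148 CPM in CD11cpos cells. The CD11cpos libraries all lay above every other WT library, and the CD229pos libraries all lay below baseline.

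The CD11cpos gate also stood apart in Cre mice at 5 weeks. Postn had 14.2, 12.1 and 13.2 CPM in Clec7aneg cells, 16.1, 15.5 and 8.73 CPM in Clec7apos cells and 11, 9.29 and 8.51 CPM in CD229pos cells. In Cre CD11cpos cells it had 173, 176 and 188 CPM. Baseline, Clec7aneg, Clec7apos and CD229pos means were 9.19%, 7.33%, 7.50% and 5.35% of the CD11cpos mean. At 6 weeks Cre CD11cpos cells had 229, 204 and 195 CPM of Postn, against 11.7, 17.7 and 22.8 CPM in Cre CD229pos cells. In Egr2KO CD11cpos cells it had 231, 218 and 232 CPM, against 16.3, 17.3 and 23.3 CPM in Egr2KO CD229pos cells.

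The other 8 genes were nearer 0 than Postn at baseline. Stra6l (chr4:45848816-45887010, + strand), which encodes a membrane receptor that takes up retinol from its plasma carrier, had 0, 0.088 and 0.294 CPM at WT baseline and 1.18, 1.01 and 1.78 CPM in WT CD229neg cells. It had 3.22, 3.2 and 2.71 CPM in WT CD229pos cells and 38.8, 42.7 and 36.6 CPM in WT CD11cpos cells. No WT library overlapped one of the next gate, an ascending order that Postn did not have.

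Igf2r (chr17:12682406-12769706, - strand) encodes the cation-independent mannose 6-phosphate receptor, which carries enzymes to lysosomes and clears the growth factor IGF2. It had 1.47, 3.34 and 2.06 CPM at WT baseline, 4.38, 5.18 and 11 CPM in WT CD229neg cells and 8.24, 6.39 and 8.43 CPM in WT CD229pos cells. In WT CD11cpos cells it had 53.8, 63.3 and 55.2 CPM. The CD229neg and CD229pos libraries overlapped, and both gates lay above baseline and below CD11cpos. The antisense RNA Airn overlaps Igf2r. The library titles name a strand-marking dUTP protocol, but the strand setting of the counting is not given in the sources used here.

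Klrb1a (chr6:128609227-128622934, - strand) encodes a lectin-like receptor known from natural killer cells. It had 0, 0.088 and 0 CPM at WT baseline, 0.118, 0.225 and 1.44 CPM in WT CD229neg cells and 0.644, 0.581 and 1.77 CPM in WT CD229pos cells. In WT CD11cpos cells it had 10.4, 10.9 and 11.7 CPM. One CD229neg and 1 CD229pos library stood above the others of their gates, and all CD11cpos libraries stood above both gates. Klrb1a has close paralogs (Klrb1b and Klrb1c), so its level is uncertain to the extent that reads were split among them. Gpr83 (chr9:14860210-14870789, + strand), a G protein-coupled receptor of brain and regulatory T cells, was the rarest receptor, with 2.6, 3.71 and 3.17 CPM in WT CD11cpos cells, against 0.515, 1.02 and 0.312 CPM in WT CD229pos cells.

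Myof (chr19:37899036-38043577, - strand) encodes myoferlin, a ferlin of membrane fusion and repair. It had 76.7, 81.5 and 80.7 CPM in WT CD11cpos cells, against 10.6, 5.96 and 10.7 CPM in WT CD229pos cells. Earlier gates were lower, with 0, 2.02 and 2.35 CPM at baseline and 3.2, 1.69 and 3.44 CPM in CD229neg cells, and these overlapped. Fxyd6 (chr9:45370185-45396159, + strand) encodes a regulator of the sodium-potassium pump and had 12.2, 11.5 and 13.1 CPM in WT CD11cpos cells, against 1.67, 1.02 and 1.77 CPM in WT CD229pos cells. Fxyd6 had no read in any WT baseline library.

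The 2 genes of ubiquitin ligases were rare throughout. Rnf186 (chr4:138967119-138968365, + strand), a RING-type ligase best known from gut epithelium, had 4.97, 6.04 and 5.13 CPM in WT CD11cpos cells, against 0.772, 1.45 and 0.729 CPM in WT CD229pos cells. Asb11 (chrX:164436994-164459170, + strand), a substrate adaptor of cullin ligases, had 2.03, 2.75 and 2.56 CPM in WT CD11cpos cells, against 0.386, 0.581 and 0.312 CPM in WT CD229pos cells. Both were at or near 0 in WT baseline and CD229neg cells, with at most 0.393 CPM of Rnf186 and 0.444 CPM of Asb11.

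**Figure D1:**
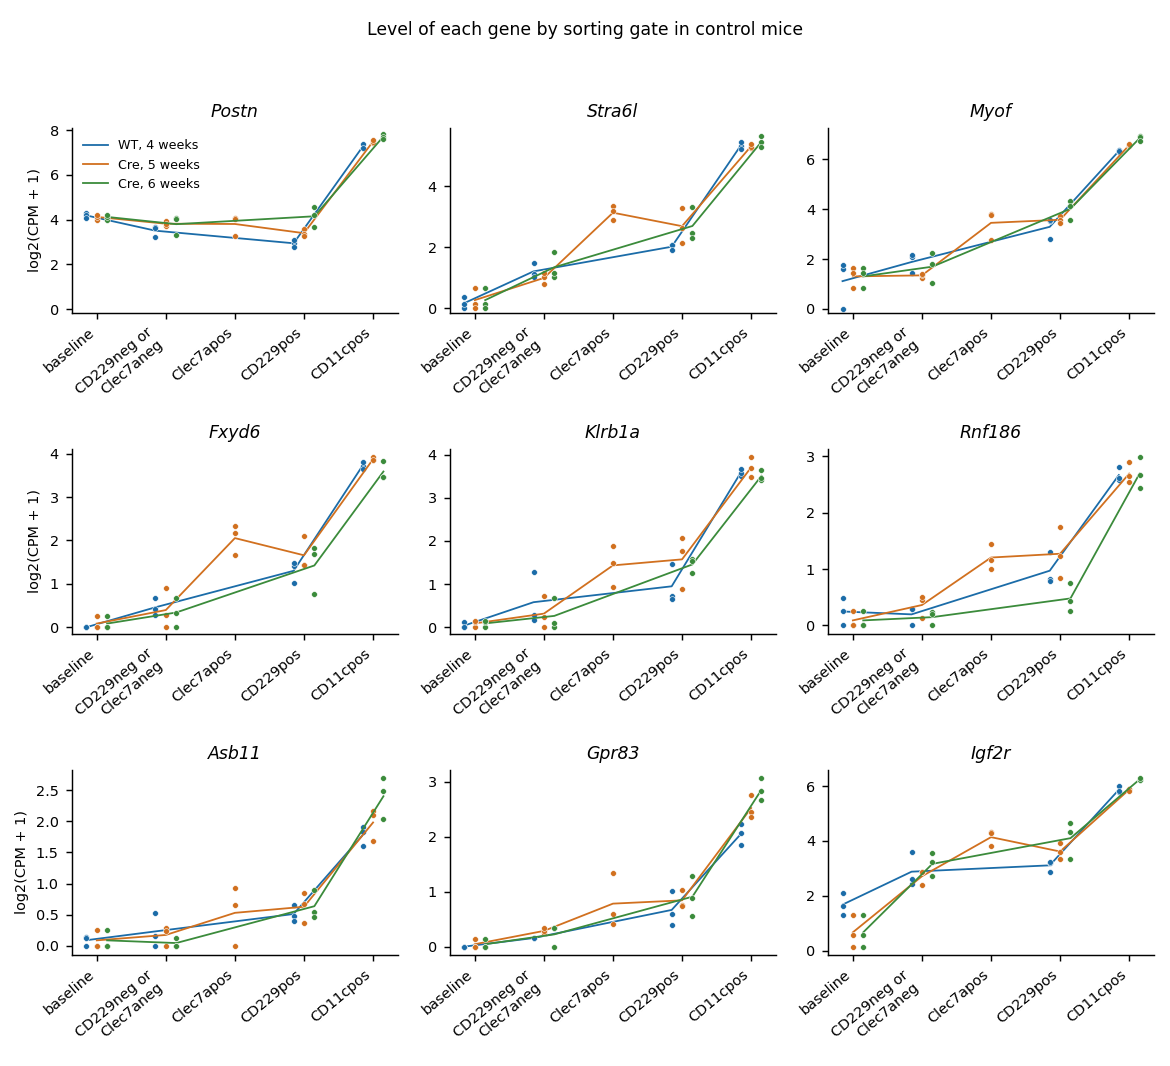
Level of the 9 genes by gate in control mice, as log2(CPM + 1) on the vertical axis, with 1 point per library and 1 panel per gene, for WT mice at 4 weeks and Cre mice at 5 and 6 weeks. The CD11cpos points lie above those of every other gate in each panel, and WT Postn points lie lower in CD229pos cells than at baseline.

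Set against transcript length, the genes spanned a wide range in WT CD11cpos cells. In CPM per kilobase of transcript (RPKM), Postn stood first at 45.2 ± 3.63 (SD, n = 3), above Myof at 11.3 ± 0.358 and Stra6l at 9.86 ± 0.771. Stra6l overlapped Klrb1a, at 8.70 ± 0.527 RPKM, and Fxyd6 (6.89 ± 0.427) overlapped Igf2r (6.47 ± 0.581). Rnf186 (4.32 ± 0.463), Asb11 (1.49 ± 0.226) and Gpr83 (0.883 ± 0.155) followed, each below the one before in all libraries. Cre CD11cpos cells at 5 weeks gave the same order of means, where Stra6l overlapped Klrb1a, Asb11 overlapped Gpr83 and no other neighbours overlapped.

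The CD11c step, by which the genes were chosen, could be measured in 5 lines and weeks, where 23.3% (WT, 4 weeks), 14.1% (Cre, 5 weeks), 10.7% (Mef2aKO, 5 weeks), 17.2% (Cre, 6 weeks) and 11.7% (Egr2KO, 6 weeks) of all tested genes differed. Every CD11cpos library lay above every CD229pos library for all 9 genes in all 5, which the choice of genes makes likely. For Postn the log2 fold change of CD11cpos over CD229pos was 4.47 ± 0.15 in WT, 4.22 ± 0.13 in Cre at 5 weeks and 3.60 ± 0.15 in Mef2aKO. It was 3.58 ± 0.16 in Cre and 3.54 ± 0.16 in Egr2KO at 6 weeks (± SE throughout).

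Among 10520 genes that had a mean of at least 5 CPM in WT CD11cpos or WT CD229pos cells, Postn ranked 1 by this fold. Stra6l ranked 2, Klrb1a 3, Myof 6, Fxyd6 7, Igf2r 8 and Rnf186 14, and Asb11 and Gpr83 lay under that level. Postn ranked 1 in Cre at 5 weeks, 2 in Mef2aKO and 3 in both 6-week lines. The step was narrowest across lines for Myof, whose log2 fold change ran from 2.87 to 3.36. It was widest for Rnf186, at 1.66 to 3.68, and for Gpr83, at 2.39 to 3.79, genes with few reads in CD229pos cells. Stra6l ran from 2.72 to 3.69, Klrb1a from 2.48 to 3.37, Fxyd6 from 2.16 to 3.00, Asb11 from 2.04 to 2.96 and Igf2r from 1.76 to 2.88.

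**Figure D2:**
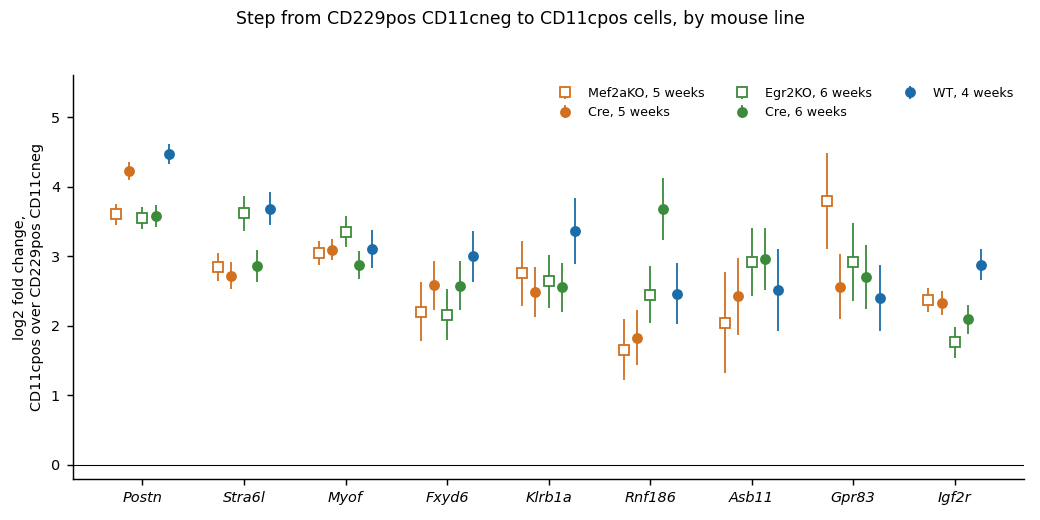
Log2 fold change of CD11cpos over CD229pos cells (± SE) for the 9 genes in the 5 lines and weeks. All values lie above 0, with Postn between 3.54 and 4.47.

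Genes of other cell types were looked at beside the step. The 9 fibroblast and mural cell markers summed to 0.339 to 1.17 CPM in WT CD11cpos cells and 0.417 to 1.02 CPM in WT CD229pos cells, with 5 and 6 of the 9 at 0. Col1a1, Col3a1, Dcn and Lum, defining genes of fibroblasts, were at 0 in all WT CD11cpos libraries, where Postn had 144 to 167 CPM. Pdgfrb was the highest of the 9 markers there, at 0.226 to 1.17 CPM, and the part of such cells was not tested. The 12 T and NK cell markers summed to 0 to 0.424 CPM in WT CD11cpos cells, with 8 of the 12, Ncr1 and Nkg7 among them, at 0. Klrb1a alone was higher than this sum in each library. The 8 border macrophage markers summed to 33.6 to 87.1 CPM in WT CD11cpos cells and 77.1 to 224 CPM in WT CD229pos cells, and 2 of them were lower in CD11cpos cells. The 7 dendritic cell markers summed to 8.79 to 12 CPM and 6.57 to 11.5 CPM in the same gates. The highest of them was Zbtb46 in WT CD11cpos cells, at 3.30 to 6.25 CPM, and Itgae in WT CD229pos cells, at 1.80 to 3.23 CPM. The part of these markers in the step was not tested.

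The remaining contrasts were tested over all genes with edgeR's quasi-likelihood test, adjusted by the Benjamini-Hochberg method, and called at an adjusted p under 0.05. The p-values measure the spread between libraries of pooled mice. All 9 genes passed the filter on low counts in 4 of the 5 experiments and 3 of the 9 (Postn, Myof and Igf2r) in the Mef2aKO baseline gates. Several passed through the CD11cpos libraries in which they were chosen to be high, among them Rnf186, Asb11 and Gpr83 at 4 weeks. The CD229pos and CD11cpos libraries that enter tests of gate or genotype also entered the step that chose the genes. In 255 tests over 29 comparisons there were 76 calls. The share of all genes called, given with each comparison below, ran from 0.15% to 52.5%. Where leaving out a single library of the compared groups changed a call, each such library is named, with the adjusted p without it. Changes from leaving out libraries of other groups in the same fit are not listed. In these bulk samples, fewer cells of a type and less RNA per cell cannot be told apart.

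Cuprizone microglia of the least marked gate differed from baseline mainly in Stra6l and Igf2r. Stra6l was higher in all 6 lines and weeks, with 1.01, 0.743 and 1.23 CPM in Cre Clec7aneg cells at 5 weeks, against 0.568, 0.0959 and 0 CPM at Cre baseline (log2 fold change 2.07 ± 0.62, adjusted p = 0.0116). In WT it differed by a log2 fold change of 3.30 ± 0.57 (adjusted p = 7.87e-05). In Trem2KO it had 0.313, 0.326, 0.23 and 0.123 CPM in CD229neg cells and no read at baseline, at least 2.52-fold higher against 3 reads over the baseline group (adjusted p = 0.0378). The gates did not overlap in any of these 3 lines.

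Igf2r was higher in 4 of the 6. It had 6.21, 6.36 and 4.31 CPM in Cre Clec7aneg cells, against 0.0947, 0.479 and 1.49 CPM at Cre baseline (log2 fold change 3.00 ± 0.34, adjusted p = 2.68e-08). In WT CD229neg cells it differed by a log2 fold change of 1.60 ± 0.29 (adjusted p = 9.22e-05), in Cre at 6 weeks by 3.58 ± 0.43 (adjusted p = 1.63e-06) and in Egr2KO at 6 weeks by 3.14 ± 0.45 (adjusted p = 2.11e-05). These 4 comparisons had no overlap between gate and baseline. In Mef2aKO, whose baseline level was above that of Cre, it had 5.16 and 3.32 CPM in Clec7aneg cells and 2.53, 1.85 and 2.25 CPM at baseline (adjusted p = 0.0703). In Trem2KO it had 0.313, 0.543, 0.575 and 0.491 CPM in CD229neg cells and 0.209, 0.36 and 0.408 CPM at baseline (adjusted p = 0.77).

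Postn went the other way in WT mice, lower in CD229neg cells than at baseline in all libraries (log2 fold change -0.68 ± 0.15, adjusted p = 0.000987). Fxyd6 and Klrb1a rose in WT CD229neg cells. Fxyd6 had 0.592, 0.225 and 0.333 CPM there and no read at baseline, at least 4.06-fold higher (adjusted p = 0.00615), and Klrb1a differed by a log2 fold change of 3.81 ± 1.18 (adjusted p = 0.0194).

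Of the 9 genes, 5 were called in WT at 4 weeks, where 30.4% of all genes were called, and 1 in Trem2KO, where 7.28% were. The counts were 2 in Cre at 5 weeks (28.8% of all genes), 1 in Mef2aKO (7.85%), 2 in Cre at 6 weeks (5.85%) and 2 in Egr2KO (8.23%). The Cre baseline libraries serve both the 5-week and the 6-week Cre comparison. Calls of Stra6l and Klrb1a rested on few reads. Klrb1a did not pass without WT baseline replicates 1 or 3 or WT CD229neg replicate 3, each left out in turn (adjusted p 0.057 to 0.298). Stra6l did not pass without Trem2KO baseline replicates 1, 2 or 3 or Trem2KO CD229neg replicates 1, 2 or 3, each left out in turn (adjusted p 0.0568 to 0.109). Postn also passed without Trem2KO baseline replicate 3 (adjusted p = 0.0104). With a replicate block, Postn also passed in Trem2KO, where the numbers do not pair the libraries (adjusted p = 0.0334). Stra6l did not pass without Cre baseline replicates 2 or 3 or Cre Clec7aneg replicate 3, each left out in turn (adjusted p 0.0538 to 0.0647). Fxyd6 also passed without Cre Clec7aneg replicate 1 (adjusted p = 0.0316). Rnf186 also passed without Cre baseline replicate 3 (adjusted p = 0.0462). Stra6l did not pass without Mef2aKO Clec7aneg replicate 1 (adjusted p = 0.0973). Stra6l did not pass without Cre CD229neg replicate 3 (adjusted p = 0.0799). Stra6l did not pass without Egr2KO baseline replicates 1 or 2, each left out in turn (adjusted p 0.0515 to 0.0814). Myof also passed without Egr2KO baseline replicate 2 (adjusted p = 0.0148). With DESeq2, Postn passed as lower in Trem2KO (adjusted p = 0.028) and in Cre at 5 weeks (adjusted p = 0.0435), and Igf2r as higher in Mef2aKO (adjusted p = 0.0108). Without the filter on low counts, Postn passed as lower in Trem2KO (adjusted p = 0.0217), and Myof in WT (0.0303) and Egr2KO (0.0208) and Igf2r in Mef2aKO (0.011) as higher.

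At 5 weeks the gain of Clec7a alone came with higher levels of most of the 9 genes, but not of Postn. Of the 9, 7 rose in Cre Clec7apos cells over Clec7aneg cells, where 37.9% of all genes were called, and 6 rose and 1 fell in Mef2aKO, where 45.8% were. Among the 13204 genes tested, 2754 rose and 2245 fell in Cre, and 3275 rose and 2775 fell in Mef2aKO. Border macrophage markers summed to 103 to 193 CPM in Cre Clec7apos cells and 22.4 to 33.6 CPM in Cre Clec7aneg cells, and to 42.2 to 59.6 CPM in Mef2aKO Clec7apos cells and 8.72 to 13.4 CPM in Mef2aKO Clec7aneg cells. Their part in the step was not tested. Igf2r had 19.1, 18.5 and 12.9 CPM in Cre Clec7apos cells, against 6.21, 6.36 and 4.31 CPM in Cre Clec7aneg cells (log2 fold change 1.66 ± 0.20, adjusted p = 4.16e-08). Myof had 12.9, 12.7 and 5.87 CPM in Cre Clec7apos cells, against 1.37, 1.59 and 1.67 CPM in Cre Clec7aneg cells (log2 fold change 2.86 ± 0.25, adjusted p = 4.1e-11). The gates did not overlap for either gene.

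Stra6l, with 9.08, 8.0 and 6.38 CPM in Cre Clec7apos cells, already had 20.2% of its CD11cpos mean there, and Igf2r had 29.2%. Fxyd6 (log2 fold change 3.15 ± 0.54, adjusted p = 1.64e-05), Klrb1a (2.61 ± 0.64, adjusted p = 0.00153), Rnf186 (2.26 ± 0.62, adjusted p = 0.00416) and Gpr83 (1.93 ± 0.73, adjusted p = 0.0365) also rose in Cre. Postn in Cre had an adjusted p of 0.52 for a log2 fold change of 0.13 ± 0.14. Gpr83 did not pass without Cre Clec7aneg replicates 1, 2 or 3 or Cre Clec7apos replicate 1, each left out in turn (adjusted p 0.0678 to 0.479). Asb11 also passed without Cre Clec7apos replicate 3 (adjusted p = 0.033).

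In Mef2aKO Postn fell, with 6.04, 6.99 and 5.44 CPM in Clec7apos cells, against 14 and 17.6 CPM in Clec7aneg cells (log2 fold change -1.34 ± 0.18, adjusted p = 2.44e-07). These libraries did not overlap. Klrb1a had 0.661, 1.42 and 1.89 CPM in Mef2aKO Clec7apos cells and no read in Mef2aKO Clec7aneg cells, at least 7.33-fold higher against 3 reads over that group (adjusted p = 0.000807). Stra6l, Myof, Fxyd6, Rnf186 and Igf2r rose too, among them Myof by a log2 fold change of 3.72 ± 0.43 (adjusted p = 1.25e-08) and Fxyd6 by 3.95 ± 1.15 (adjusted p = 0.0055). Fxyd6 did not pass without Mef2aKO Clec7aneg replicate 2 (adjusted p = 0.0734). Rnf186 did not pass without Mef2aKO Clec7aneg replicate 2 or Mef2aKO Clec7apos replicate 2, each left out in turn (adjusted p 0.0566 to 0.148).

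Cells with CD229 had higher levels of 5 of the 9 genes at 4 weeks in WT and of 7 at 6 weeks in Cre and in Egr2KO. Postn was lower in them at 4 weeks in WT and Trem2KO. At 4 weeks in WT, 5 rose and Postn fell in CD229pos cells over CD229neg cells, where 48.8% of all genes were called. Among the 12647 genes tested there, 3112 rose and 3056 fell. Postn fell by 0.60 on the log2 scale (SE 0.18, adjusted p = 0.00662), with no overlap between the libraries given above. Stra6l (log2 fold change 1.20 ± 0.33, adjusted p = 0.00369), Myof (1.75 ± 0.37, adjusted p = 0.000297), Fxyd6 (1.97 ± 0.55, adjusted p = 0.00462), Rnf186 (2.58 ± 0.75, adjusted p = 0.00611) and Gpr83 (2.26 ± 0.82, adjusted p = 0.0271) rose. Gpr83 did not pass without WT CD229neg replicates 1, 2 or 3 or WT CD229pos replicate 2, each left out in turn (adjusted p 0.0638 to 0.143). Igf2r also passed without WT CD229neg replicate 3 (adjusted p = 0.0133). Klrb1a also passed without WT CD229neg replicate 3 (adjusted p = 0.0135). Without the filter on low counts, Gpr83 did not pass (adjusted p = 0.0751). The sums of border macrophage markers were 77.1 to 224 CPM in WT CD229pos cells and 60.3 to 191 CPM in WT CD229neg cells, which overlapped.

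In Trem2KO mice at 4 weeks, Postn had 6.24, 5.4, 4.63 and 8.66 CPM in CD229pos cells, against 12, 11.7, 13 and 11.7 CPM in CD229neg cells (means 6.23 ± 1.75 and 12.1 ± 0.619 CPM, SD, n = 4 each, adjusted p = 9.89e-06 in edgeR's fit over all genes). Every CD229pos library lay below every CD229neg library. Myof (log2 fold change 2.36 ± 0.81, adjusted p = 0.0306) and Rnf186 (3.45 ± 0.99, adjusted p = 0.00986) rose, and Gpr83 was at least 2.77-fold higher against 3 reads over CD229neg cells, which had none (adjusted p = 0.02). These 4 calls stood where 27.5% of all genes were called. Border macrophage markers summed to 83.6 to 117 CPM in Trem2KO CD229pos cells and 20.2 to 32.0 CPM in Trem2KO CD229neg cells, and their part in the step was not tested. Gpr83 did not pass without Trem2KO CD229pos replicate 2 (adjusted p = 0.0646). Myof did not pass without Trem2KO CD229neg replicates 2, 3 or 4 or Trem2KO CD229pos replicate 1, each left out in turn (adjusted p 0.0574 to 0.122).

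At 5 weeks, where both gates have Clec7a, 1 of the 9 was called in Cre, where 5.53% of all genes were. Postn fell to 11, 9.29 and 8.51 CPM in CD229pos cells, against 16.1, 15.5 and 8.73 CPM in Clec7apos cells, which overlapped in 1 Clec7apos library (log2 fold change -0.54 ± 0.15, adjusted p = 0.0301). In Mef2aKO edgeR called 0 of the 9, where 0.47% of all genes were called, with 1 at an unadjusted p under 0.05 and 0 by DESeq2. In Mef2aKO baseline cells split by CD229, edgeR called 0 of the 3 tested genes, where 0.15% of all genes were called, with 2 at an unadjusted p under 0.05 and 0 by DESeq2. Postn did not pass without Cre Clec7apos replicates 1 or 2 or Cre CD229pos replicates 2 or 3, each left out in turn (adjusted p 0.0712 to 0.173). Igf2r also passed without Cre Clec7apos replicate 3 or Cre CD229pos replicate 3, each left out in turn (adjusted p 0.0253 to 0.0393). Stra6l also passed without Cre CD229pos replicate 3 (adjusted p = 0.0247). In a fit of the compared groups alone, Postn did not pass (adjusted p = 0.135). Igf2r in Cre passed as lower in CD229pos cells with DESeq2 (adjusted p = 0.0118) and without the filter on low counts (adjusted p = 0.00503). Without that filter Igf2r passed as higher in the CD229pos cells of Mef2aKO baseline (adjusted p = 0.0133).

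At 6 weeks 7 of the 9 rose in Cre CD229pos cells over CD229neg cells, where 17.2% of all genes were called, and 7 in Egr2KO, where 27.5% were. Among the 13187 genes tested, 1407 rose and 862 fell in Cre, and 1939 rose and 1692 fell in Egr2KO. Myof had 10.9, 19.4 and 16.6 CPM in Cre CD229pos cells, against 1.04, 2.51 and 3.72 CPM in Cre CD229neg cells (log2 fold change 2.58 ± 0.29, adjusted p = 3.95e-07). In Egr2KO Myof had 6.29, 8.8 and 10.4 CPM in CD229pos cells, against 2.05, 1.47 and 1.82 CPM in CD229neg cells (log2 fold change 2.33 ± 0.39, adjusted p = 5.12e-05). Neither pair of gates overlapped.

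Stra6l, Fxyd6, Klrb1a, Asb11 and Igf2r rose in both lines, Gpr83 was called in Cre and Rnf186 in Egr2KO. In Cre the log2 fold changes of these genes ran from 1.05 ± 0.25 for Igf2r to 3.71 ± 0.99 for Asb11. For Postn the log2 fold change was 0.36 ± 0.18 in Cre (adjusted p = 0.176) and 0.43 ± 0.19 in Egr2KO (adjusted p = 0.0991). Asb11 did not pass without Cre CD229neg replicate 3 or Cre CD229pos replicate 2, each left out in turn (adjusted p 0.0592 to 0.0623). Gpr83 did not pass without Cre CD229neg replicate 3 or Cre CD229pos replicates 2 or 3, each left out in turn (adjusted p 0.0555 to 0.156). Postn also passed without Cre CD229pos replicate 1 (adjusted p = 0.0241). Asb11 did not pass without Egr2KO CD229neg replicates 2 or 3 or Egr2KO CD229pos replicates 1, 2 or 3, each left out in turn (adjusted p 0.0535 to 0.188). Fxyd6 did not pass without Egr2KO CD229neg replicate 1 (adjusted p = 0.0505). Igf2r did not pass without Egr2KO CD229neg replicates 1 or 2 or Egr2KO CD229pos replicates 2 or 3, each left out in turn (adjusted p 0.0576 to 0.114). Klrb1a did not pass without Egr2KO CD229neg replicate 2 or Egr2KO CD229pos replicate 3, each left out in turn (adjusted p 0.0611 to 0.0652). Rnf186 did not pass without Egr2KO CD229neg replicates 1 or 2 or Egr2KO CD229pos replicates 2 or 3, each left out in turn (adjusted p 0.0774 to 0.18). Stra6l did not pass without Egr2KO CD229neg replicates 1, 2 or 3 or Egr2KO CD229pos replicates 1 or 2, each left out in turn (adjusted p 0.0541 to 0.0776). Postn also passed without Egr2KO CD229neg replicate 2 (adjusted p = 0.0255). With DESeq2 in Egr2KO, Igf2r did not pass (adjusted p = 0.0642) and Postn passed as higher (adjusted p = 0.0493). Without the filter on low counts, Postn passed as higher in Egr2KO (adjusted p = 0.00776) and in Cre (adjusted p = 0.0256). The 8 border macrophage markers summed to 159 to 386 CPM in Cre CD229pos cells and 70.0 to 101 CPM in Cre CD229neg cells, and to 123 to 198 CPM in Egr2KO CD229pos cells and 49.4 to 70.0 CPM in Egr2KO CD229neg cells. The 5 monocyte markers summed to 21.8 to 30.2 CPM in Cre CD229pos cells and 6.52 to 13.9 CPM in Cre CD229neg cells, and to 10.4 to 15.6 CPM in Egr2KO CD229pos cells and 8.75 to 13.4 CPM in Egr2KO CD229neg cells. The part of these markers in the step was not tested.

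Loss of Trem2 came with lower levels of 6 of the 9 genes in CD229pos cells, but not of Postn, and 52.5% of all genes were called there. Among the 12647 genes tested, 3356 were lower and 3282 higher in Trem2KO. Igf2r had 0.693, 0.648, 0.852 and 0.147 CPM in Trem2KO CD229pos cells, against 8.24, 6.39 and 8.43 CPM in WT CD229pos cells (log2 fold change -3.70 ± 0.35, adjusted p = 1.02e-09). Myof had 1.65, 1.08, 0.852 and 0.44 CPM in Trem2KO CD229pos cells, against 10.6, 5.96 and 10.7 CPM in WT CD229pos cells (log2 fold change -3.15 ± 0.40, adjusted p = 2.23e-07). Stra6l had 0.433, 0.54, 0.365 and 0 CPM in Trem2KO CD229pos cells, against 3.22, 3.2 and 2.71 CPM in WT CD229pos cells (log2 fold change -3.09 ± 0.38, adjusted p = 2.68e-07). None of these 3 genes overlapped between genotypes, and all were near 0 in Trem2KO.

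Klrb1a had no read in any of the 11 Trem2KO libraries. It was at least 11.9-fold lower in Trem2KO CD229pos cells than in WT CD229pos cells, against 3 reads over the Trem2KO group (adjusted p = 0.000311). Fxyd6 (log2 fold change -4.52 ± 0.71, adjusted p = 8.28e-06) and Asb11 (-2.68 ± 1.03, adjusted p = 0.0338) were lower too. Asb11 had at most 0.581 CPM outside WT CD11cpos cells in this experiment, and its call rested on 2 Trem2KO and 10 WT reads. The WT and Trem2KO cuprizone libraries come from different tables, which list different transcripts for Klrb1a, Asb11 and Gpr83, and what this does to their genotype differences was not tested. Postn had 6.24, 5.4, 4.63 and 8.66 CPM in Trem2KO CD229pos cells and 6.82, 5.81 and 7.6 CPM in WT CD229pos cells, and these overlapped (log2 fold change -0.22 ± 0.18, adjusted p = 0.32). Asb11 did not pass without WT CD229pos replicates 1 or 2 or Trem2KO CD229pos replicates 1, 2 or 3, each left out in turn (adjusted p 0.0631 to 0.107). Gpr83 also passed without WT CD229pos replicate 3 or Trem2KO CD229pos replicate 2, each left out in turn (adjusted p 0.0416 to 0.0492). Without the filter on low counts, Asb11 did not pass (adjusted p = 0.0572).

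In CD229neg cells 4 of the 9 were lower in Trem2KO, where 20.3% of all genes were called. Igf2r had 0.313, 0.543, 0.575 and 0.491 CPM in Trem2KO CD229neg cells, against 4.38, 5.18 and 11 CPM in WT CD229neg cells (log2 fold change -3.83 ± 0.37, adjusted p = 7.69e-09). Stra6l (log2 fold change -2.36 ± 0.48, adjusted p = 0.000957) and Myof (-3.76 ± 0.69, adjusted p = 0.000283) were lower, and Klrb1a was at least 7.07-fold lower (adjusted p = 0.00903). Postn had 12, 11.7, 13 and 11.7 CPM in Trem2KO CD229neg cells, against 8.41, 11.7 and 11.3 CPM in WT CD229neg cells (log2 fold change 0.18 ± 0.15, adjusted p = 0.44). Klrb1a did not pass without WT CD229neg replicate 3 (adjusted p = 0.13). Fxyd6 also passed without Trem2KO CD229neg replicate 1 (adjusted p = 0.0163). With a replicate block, Asb11 also passed (adjusted p = 0.025).

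At baseline 1 of the 9 was lower in Trem2KO, where 0.577% of all genes were called. Igf2r had 0.209, 0.36 and 0.408 CPM at Trem2KO baseline, against 1.47, 3.34 and 2.06 CPM at WT baseline, without overlap (log2 fold change -2.75 ± 0.50, adjusted p = 0.00502). Igf2r did not pass without WT baseline replicate 2 (adjusted p = 0.0756). Myof also passed without WT baseline replicate 1 (adjusted p = 0.0193). In a fit of the compared groups alone, Igf2r did not pass (adjusted p = 0.178). Myof passed as lower without the filter on low counts (adjusted p = 0.0466). The difference of the CD229 step between Trem2KO and WT was called for 14.8% of all genes. With edgeR it was called for 0 of the 9, with 0 at an unadjusted p under 0.05, and DESeq2 called 0. For Postn this difference of steps was -0.40 ± 0.24 (log2 ± SE, adjusted p = 0.281), and for Myof 0.61 ± 0.90 (adjusted p = 0.708).

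Other genes moved with the Trem2KO gates. Itgax had 29.2 to 36.9 CPM in Trem2KO CD229pos cells and 242 to 262 CPM in WT CD229pos cells. Border macrophage markers summed to 20.2 to 32 CPM in Trem2KO CD229neg cells and 60.3 to 191 CPM in WT CD229neg cells, with 8 of 8 lower in Trem2KO. In CD229pos cells they summed to 83.6 to 117 CPM in Trem2KO and 77.1 to 224 CPM in WT, with 2 of 8 lower. Their part in the results was not tested.

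**Figure D3:**
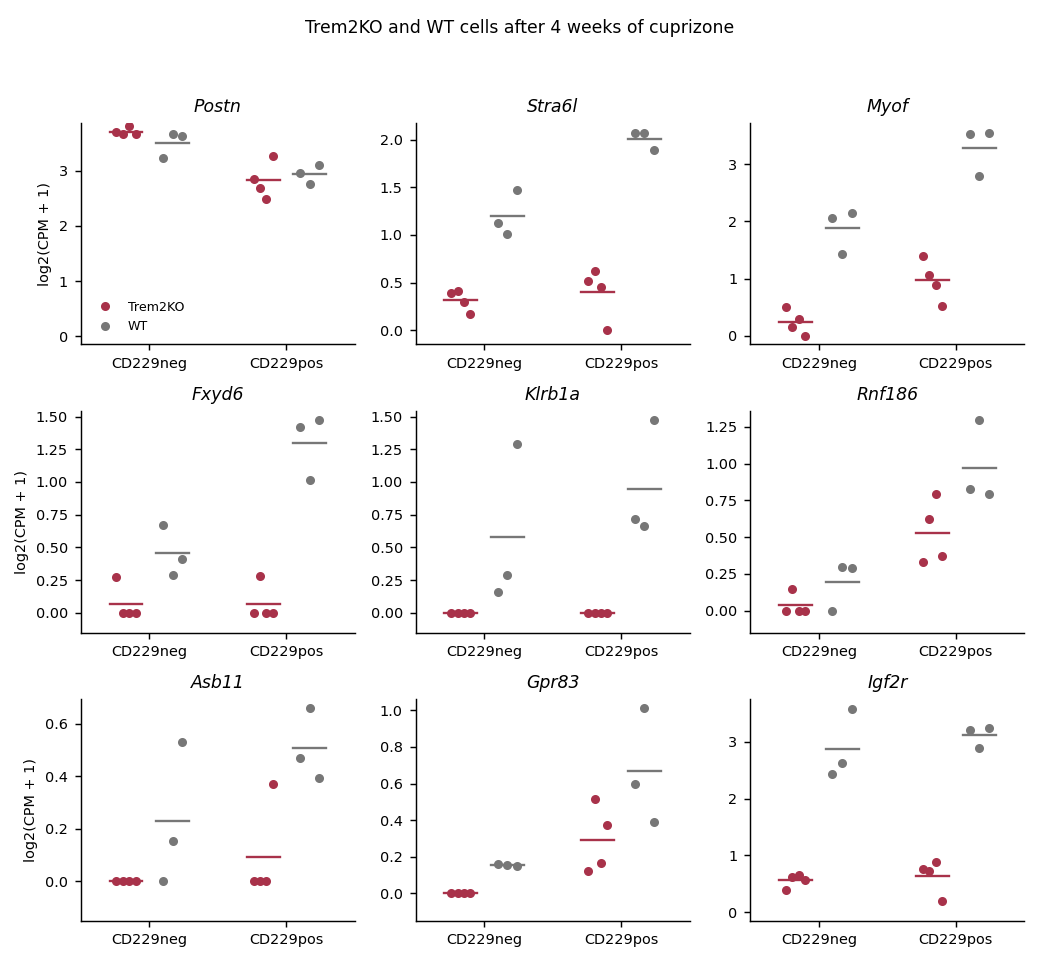
Level of the 9 genes in Trem2KO (left of each pair) and WT libraries in the CD229neg and CD229pos gates at 4 weeks of cuprizone, as log2(CPM + 1), with 1 point per library and a bar at the group mean. The Igf2r points of the genotypes do not overlap in either gate, and the Postn points overlap in CD229pos cells.

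Loss of Mef2a came with lower Postn in each Clec7a-positive gate. In CD11cpos cells Postn had 60.4, 52 and 62.5 CPM in Mef2aKO, against 173, 176 and 188 CPM in Cre (log2 fold change -1.65 ± 0.11, adjusted p = 6.39e-13). In CD229pos cells it had 5.4, 3.8 and 4.47 CPM in Mef2aKO, against 11, 9.29 and 8.51 CPM in Cre (log2 fold change -1.03 ± 0.18, adjusted p = 0.000265). In Clec7apos cells it had 6.04, 6.99 and 5.44 CPM in Mef2aKO, against 16.1, 15.5 and 8.73 CPM in Cre (log2 fold change -1.17 ± 0.17, adjusted p = 1.66e-05). All Mef2aKO libraries lay below all Cre libraries in these 3 gates.

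At baseline and in Clec7aneg cells Postn was not lower in Mef2aKO. It had 21.8, 17.1 and 19.5 CPM at Mef2aKO baseline, against 15, 16.6 and 17.8 CPM at Cre baseline (log2 fold change 0.25 ± 0.13, adjusted p = 0.384). In Clec7aneg cells it had 14 and 17.6 CPM in Mef2aKO, against 14.2, 12.1 and 13.2 CPM in Cre (log2 fold change 0.30 ± 0.16, adjusted p = 0.336). Whether the genotype difference varied between gates was not tested.

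In Mef2aKO CD11cpos cells 4 of the 9 genes were lower, where 4.69% of all genes were called. Myof had 49.3, 54.8 and 55.5 CPM in Mef2aKO, against 91.1, 94.4 and 96 CPM in Cre (log2 fold change -0.85 ± 0.13, adjusted p = 5.42e-05). Fxyd6 had 6.04, 4.42 and 5.73 CPM in Mef2aKO, against 13.5, 14.1 and 13.4 CPM in Cre (log2 fold change -1.36 ± 0.32, adjusted p = 0.00666). Klrb1a had 6.04, 4.16 and 5.58 CPM in Mef2aKO, against 11.9, 10.2 and 14.3 CPM in Cre (log2 fold change -1.23 ± 0.33, adjusted p = 0.0232). The genotypes did not overlap for these 3 genes.

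Stra6l, which followed Postn in rank at the CD11c step, had 51, 44.7 and 53.9 CPM in Mef2aKO CD11cpos cells, against 36.7, 38.4 and 41 CPM in Cre CD11cpos cells. All Mef2aKO libraries lay above all Cre libraries, and the difference did not pass (log2 fold change 0.34 ± 0.16, adjusted p = 0.331). Igf2r (log2 fold change -0.33 ± 0.15, adjusted p = 0.291), Rnf186 (-0.62 ± 0.36, adjusted p = 0.47), Asb11 (-1.40 ± 0.49, adjusted p = 0.115) and Gpr83 (-1.07 ± 0.40, adjusted p = 0.156) did not pass either. Klrb1a did not pass without Cre CD11cpos replicates 1 or 3 or Mef2aKO CD11cpos replicates 1, 2 or 3, each left out in turn (adjusted p 0.0549 to 0.143). In a fit of the compared groups alone, Stra6l passed as higher in Mef2aKO (adjusted p = 0.00551), and Igf2r (0.00944), Asb11 (0.013) and Gpr83 (0.0196) passed as lower.

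In Clec7apos cells 3 of the 9 were lower in Mef2aKO, where 3.70% of all genes were called: Postn, Myof (log2 fold change -0.76 ± 0.20, adjusted p = 0.0207) and Fxyd6 (-1.58 ± 0.46, adjusted p = 0.0475). Fxyd6 did not pass without Cre Clec7apos replicates 1 or 2 or Mef2aKO Clec7apos replicates 1 or 2, each left out in turn (adjusted p 0.116 to 0.297). Myof did not pass without Cre Clec7apos replicates 1 or 2 or Mef2aKO Clec7apos replicates 2 or 3, each left out in turn (adjusted p 0.0584 to 0.188). In a fit of the compared groups alone, Myof did not pass (adjusted p = 0.0733) and Igf2r passed as lower (adjusted p = 0.0495). Igf2r also passed as lower with DESeq2 (adjusted p = 0.0325) and without the filter on low counts (adjusted p = 0.017). In CD229pos cells 2 of the 9 were lower, where 4.90% of all genes were called: Postn and Myof (log2 fold change -0.80 ± 0.19, adjusted p = 0.0092). Myof did not pass without Cre CD229pos replicate 1 or Mef2aKO CD229pos replicate 3, each left out in turn (adjusted p 0.0551 to 0.0676). Klrb1a also passed without Cre CD229pos replicate 1 (adjusted p = 0.0245), with DESeq2 (adjusted p = 0.0445) and without the filter on low counts (adjusted p = 0.0154). In Clec7aneg cells edgeR called 0 of the 9, where 5.53% of all genes were called, with 2 at an unadjusted p under 0.05 and 0 by DESeq2. Myof passed there as lower without the filter on low counts (adjusted p = 0.0209).

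At baseline 2 of the 9 were called in Mef2aKO, where 3.84% of all genes were, in opposite directions. Myof had 0.0872, 0.0971 and 0.333 CPM at Mef2aKO baseline, against 2.08, 1.73 and 0.794 CPM at Cre baseline (log2 fold change -3.03 ± 0.55, adjusted p = 0.000575). Igf2r had 2.53, 1.85 and 2.25 CPM at Mef2aKO baseline, against 0.0947, 0.479 and 1.49 CPM at Cre baseline (log2 fold change 1.70 ± 0.41, adjusted p = 0.0111). All Mef2aKO libraries lay below Cre for Myof and above Cre for Igf2r. In Mef2aKO baseline cells split by CD229, Igf2r had 0.793, 0.353 and 0.478 CPM in CD229neg and 1.26 and 3.85 CPM in CD229pos cells. At WT baseline it had 1.47, 3.34 and 2.06 CPM. Igf2r did not pass without Cre baseline replicates 1 or 2 or Mef2aKO baseline replicate 1, each left out in turn (adjusted p 0.0533 to 0.109). In a fit of the compared groups alone, Igf2r did not pass (adjusted p = 0.329).

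Itgax, the gene of the CD11c protein used for gating, had 617 to 723 CPM in Mef2aKO CD11cpos cells and 917 to 999.9 CPM in Cre CD11cpos cells. Border macrophage markers summed to 84 to 124 CPM in Mef2aKO CD11cpos cells and 115 to 125 CPM in Cre CD11cpos cells, with 0 of 8 lower and 1 higher. In Clec7apos cells they summed to 42.2 to 59.6 CPM in Mef2aKO and 103 to 193 CPM in Cre, and in CD229pos cells to 57.6 to 68.4 CPM in Mef2aKO and 126 to 151 CPM in Cre, with 5 of 8 lower in each. Fibroblast and mural cell markers summed to 1.56 to 6.23 CPM in Mef2aKO CD11cpos cells and 0.469 to 1.39 CPM in Cre CD11cpos cells. Pdgfrb alone had 1.43 to 5.73 CPM in Mef2aKO CD11cpos cells and 0.469 to 0.628 CPM in Cre CD11cpos cells. At baseline the Pdgfrb mean was 8.94 CPM in Mef2aKO, and no marker of this list had a mean over 0.843 CPM in Cre. The part of these markers and of Itgax in the results was not tested.

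**Figure D4:**
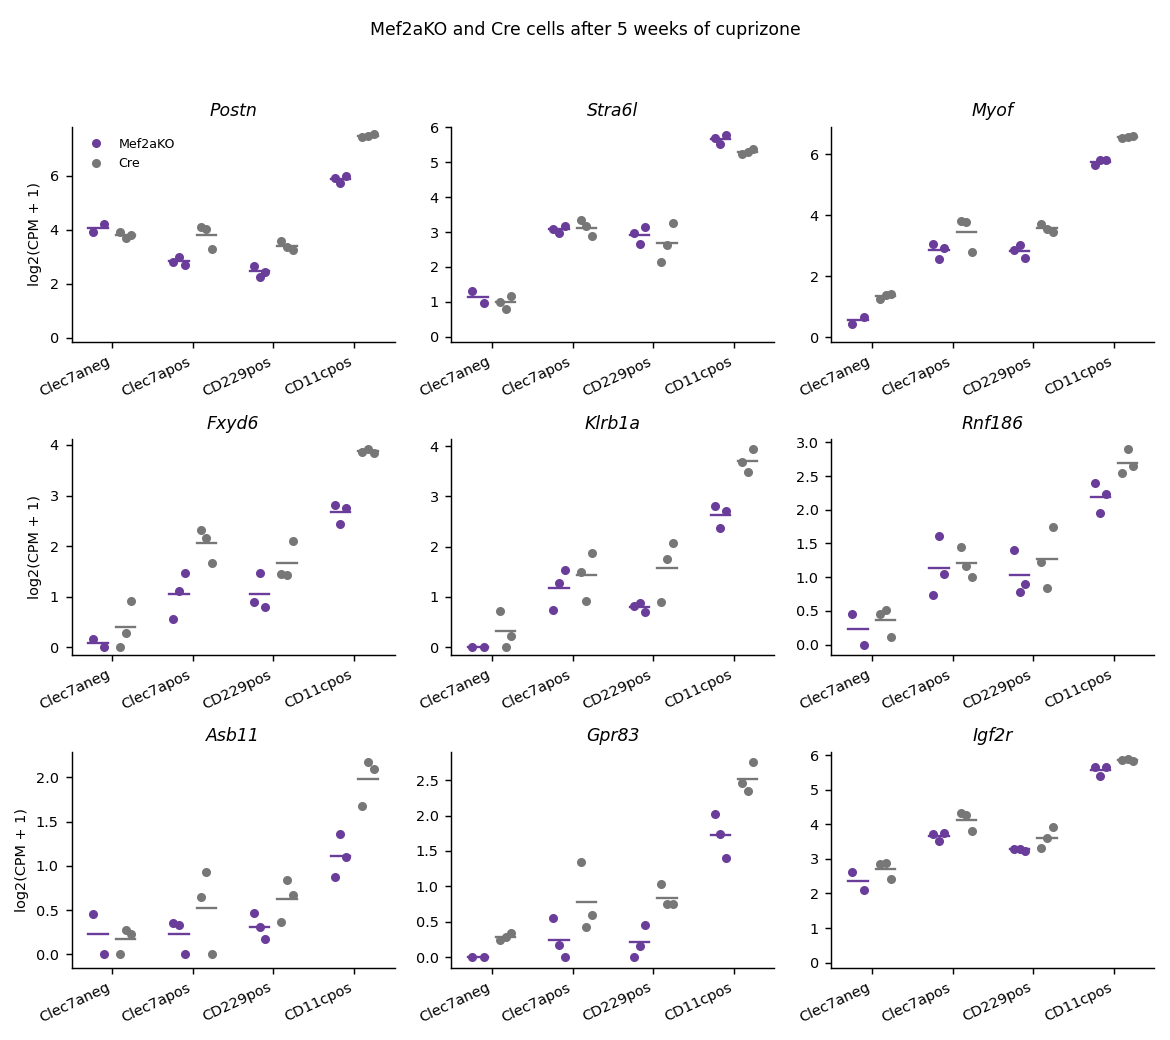
Level of the 9 genes in Mef2aKO (left of each pair) and Cre libraries in the 4 gates at 5 weeks of cuprizone, as log2(CPM + 1), with 1 point per library and a bar at the group mean. Mef2aKO points of Postn lie below the Cre points in Clec7apos, CD229pos and CD11cpos cells, and those of Stra6l lie above them in CD11cpos cells.

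In Egr2KO cells sorted by gate, where Egr2 itself was not called lower at 6 weeks, none of the 9 genes was called against Cre in the fit of all groups. The edgeR test called 0 of the 9 at baseline (0.182% of all genes called), in CD229neg cells (0.19%), in CD229pos cells (2.46%) and in CD11cpos cells (0.25%). DESeq2 called 0 in each, and at an unadjusted p under 0.05 there were 0 at baseline, 0 in CD229neg, 2 in CD229pos and 0 in CD11cpos cells. In CD11cpos cells Postn had 231, 218 and 232 CPM in Egr2KO, against 229, 204 and 195 CPM in Cre (log2 fold change 0.12 ± 0.13, adjusted p = 0.798). Myof had 95.2, 78.9 and 96.4 CPM in Egr2KO, against 120.0, 117 and 106 CPM in Cre (log2 fold change -0.33 ± 0.18, adjusted p = 0.589). The genotypes overlapped for Postn. For Myof all Egr2KO libraries lay below the Cre libraries, a difference that did not pass. Without the filter on low counts, Myof (adjusted p = 4.6e-05) and Stra6l (adjusted p = 0.0417) passed as lower in Egr2KO CD229pos cells. Igf2r passed as lower in Egr2KO CD11cpos cells in a fit of the compared groups alone (adjusted p = 0.0217).

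In whole microglia at 5 weeks, not gated on CD11c, 2 of the 9 were lower in Egr2KO, where 0.92% of all genes were called. Myof had 12.8 and 12.6 CPM in Egr2KO whole microglia, against 37.2 and 26.6 CPM in Cre whole microglia (log2 fold change -1.39 ± 0.16, adjusted p = 0.00036). Igf2r had 16.2 and 16.6 CPM in Egr2KO whole microglia, against 26.3 and 24.4 CPM in Cre whole microglia (log2 fold change -0.67 ± 0.13, adjusted p = 0.028). Postn had 40.1 and 38.6 CPM in Egr2KO whole microglia, against 64.2 and 40.5 CPM in Cre whole microglia (log2 fold change -0.48 ± 0.15, adjusted p = 0.248). The genotypes did not overlap for any of the 3, and 1 Cre library set most of the distance for Postn.

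Itgax was lower in the same libraries, at 292 to 365 CPM in Egr2KO and 569 to 575 CPM in Cre (log2 fold change -0.85 ± 0.10, adjusted p = 0.00036). Border macrophage markers summed to 54.1 to 57.8 CPM in Egr2KO and 75.9 to 80.3 CPM in Cre, with 2 of 8 lower. Their part in the result was not tested. Igf2r did not pass without Cre whole replicate 1 or Egr2KO whole replicates 1 or 2, each left out in turn (adjusted p 0.0525 to 0.0744). Postn also passed without Cre whole replicate 2 (adjusted p = 0.000844). With DESeq2, Igf2r did not pass (adjusted p = 0.142). With a replicate block, Postn also passed (adjusted p = 0.00638). Postn (adjusted p = 0.00295) and Fxyd6 (adjusted p = 0.0404) passed as lower without the filter on low counts.

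**Figure D5:**
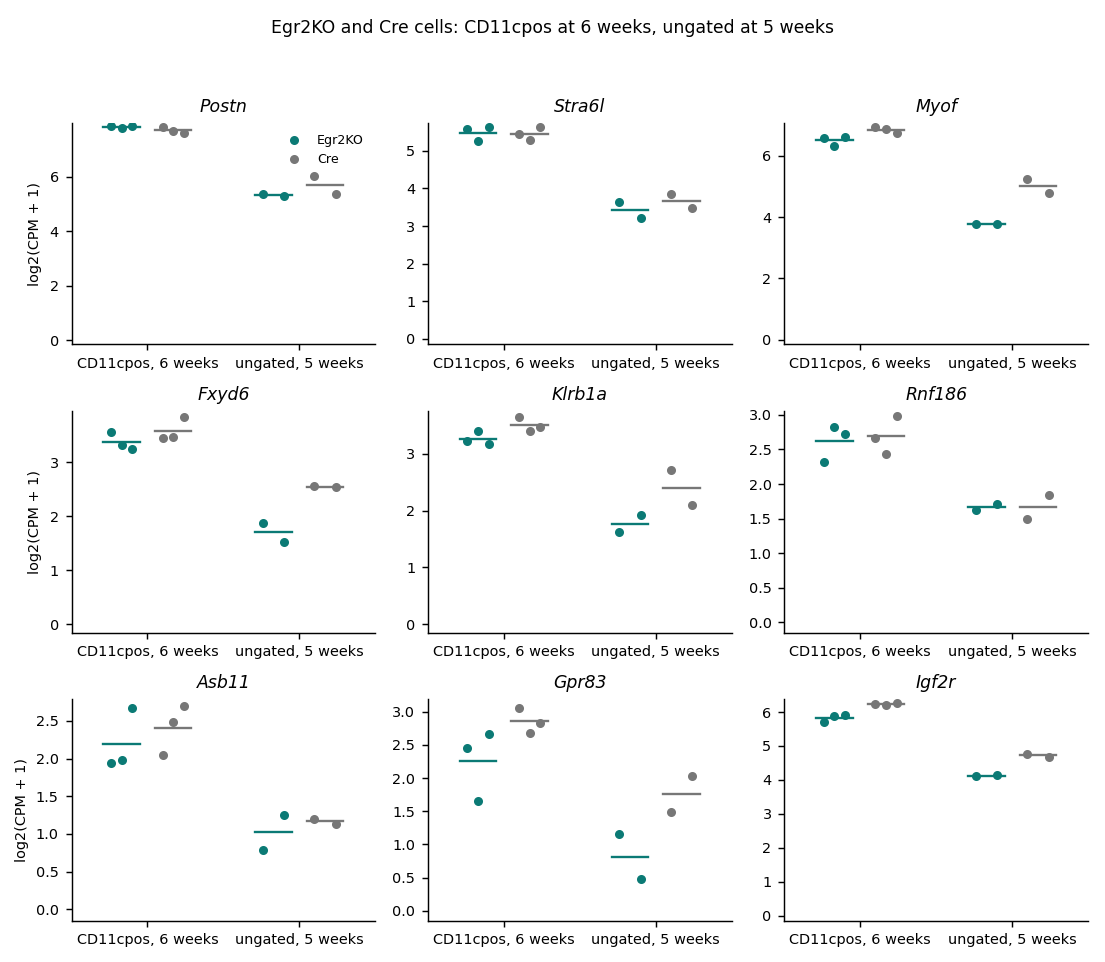
Level of the 9 genes in Egr2KO (left of each pair) and Cre libraries in CD11cpos cells at 6 weeks and in whole microglia at 5 weeks of cuprizone, as log2(CPM + 1), with 1 point per library and a bar at the group mean. Myof and Igf2r lie lower in Egr2KO whole microglia, and the CD11cpos points of Postn lie at like heights.

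Relatives and partners of the 9 genes mostly did not share the CD11c step. Of the periostin relatives, matricellular proteins and their integrins, 12 were tested in WT, of which 1 rose and 6 fell in CD11cpos over CD229pos cells, where 23.3% of all genes were called, with a median log2 fold change of -0.24 (0.01 over all genes). Thbs2, thrombospondin 2, had 3.42 ± 1.77 CPM in WT CD11cpos cells, against 13.5 ± 1.16 CPM in WT CD229pos cells (log2 fold change -2.01 ± 0.27, adjusted p = 2.81e-06). Thbs1, thrombospondin 1, rose, with 66 ± 4.58 CPM in CD11cpos cells and 37 ± 3.14 CPM in CD229pos cells (log2 fold change 0.82 ± 0.11, adjusted p = 2.49e-06; SD, n = 3). In Cre 1 rose and 6 fell of 13 at 5 weeks, where 14.1% of all genes were called, and 2 rose and 6 fell of 13 at 6 weeks, where 17.2% were.

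The paralogs of Klrb1a and the Clec2 genes, which encode ligands of this receptor family, all rose in WT, 4 of 4 tested with a median of 1.02, and 3 of 4 and 2 of 4 rose in Cre at 5 and 6 weeks, where the shares of all genes called were those above. Klrb1b had 36.6 ± 2.7 CPM in WT CD11cpos cells, against 19.1 ± 2.19 CPM in WT CD229pos cells (log2 fold change 0.92 ± 0.20, adjusted p = 0.00121). In Trem2KO CD229pos cells Klrb1b had 0.319 ± 0.203 CPM, against 19.1 ± 2.19 CPM in WT CD229pos cells (log2 fold change -5.97 ± 0.33, adjusted p = 3.21e-14).

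Against the 23.3% of all genes called at the WT step, 2 rose and 0 fell of 6 tested genes that make, bind or sense retinoids, among them Rarg, a retinoic acid receptor (log2 fold change 0.97 ± 0.17, adjusted p = 0.000117). Of the ASB family 1 rose and 0 fell of 8. Of the mannose 6-phosphate sorting and IGF receptor genes 2 rose and 2 fell of 15, with a median of 0.01. The 1 ferlin tested besides Myof, Fer1l5, was not called.

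Across the 28 group means, the levels of the 9 genes followed each other, and Postn less closely than the rest. Pearson's r of log2(CPM + 1) ran from 0.67 to 0.88 in the 8 pairs with Postn and from 0.86 to 0.99 in the 28 pairs without it, and these points share libraries' gates and diets. The means include the CD11cpos and CD229pos groups whose difference chose the genes, which makes a high r between them likely. The genes of like pattern were found with the same means. Of 10013 genes with a group mean of at least 5 CPM, those whose means followed Postn most closely were Irak2 (r = 0.909), a kinase of interleukin 1 and Toll-like receptor signalling, Ahcyl2 (0.884), Arhgap9 (0.876), Mllt6 (0.872), Prodh (0.870), Coq8a (0.868), Fam214a (0.862) and Cd14 (0.858). Irak2 had a mean of 255 CPM in WT CD11cpos cells and 194 CPM in WT CD229pos cells, a log2 fold change of 0.38 ± 0.05. The closest to Stra6l was Kcnq3 (0.970), to Myof Fxyd6 and to Fxyd6 Myof (0.976), to Klrb1a Fxyd6 (0.992), to Rnf186 Atp2b1 (0.974), to Asb11 Slamf7 (0.964), to Gpr83 Atp6v0d2 (0.973) and to Igf2r Eno2 (0.975).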

How the data were processed

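Poly(A) RNA of sorted microglia was sequenced in 81 libraries. The deposited values used are raw read counts per gene, with 1 RefSeq transcript and its length per gene, per the file headers. The submitters' processing notes name fastp 0.20.0, STAR 2.7.0f, HOMER 4.11, DESeq2 and the mm10/GRCm38 genome, without the role of each. A PE150 tag of unstated meaning is in 17 library titles.

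Groups were taken from the labels. CPM were computed from library totals, and RPKM from the counts and deposited lengths. Each of the 5 experiments was fitted over all genes by the quasi-likelihood method of edgeR 4.0.16 (run in R 4.3.3), after filterByExpr on the groups and TMM scaling, and a gene was called at a Benjamini-Hochberg adjusted p under 0.05. The WT and Trem2KO fit tested 12647 genes (16 residual degrees of freedom), Cre and Mef2aKO 13204 (19), the Mef2aKO baseline gates 12628 (7), Cre and Egr2KO 13187 (15) and whole microglia 12387 (2). Where a group had no read, the fold is a bound against 3 reads over that group. The WT and Trem2KO tables share the WT baseline libraries and were joined over 24910 genes with equal counts there, and 214 genes were left out. The 9 genes, the lists of relatives and markers and the rule for genes of like pattern (highest r over group means of log2(CPM + 1), 8 genes for Postn and 3 for each other gene) were chosen with earlier results of these data known. Replicate pairs differed by at least 1.564 times the chi-square of counting noise, so no library was counted as a duplicate. Same-numbered libraries of a step were correlated in their deviations from group means, and every pair exceeded 0.1 only in the 6-week CD229 step (0.17 to 0.288 in Cre, 0.121 to 0.176 in Egr2KO). There the PE150 tag also follows the replicate number. A value under 0.1 does not show that libraries were unpaired, and the main fits treat all libraries as independent. Alternatives were DESeq2 1.42.0, its size factors in edgeR, no filter, only the groups compared, a replicate block and each library left out in turn. The PE150 tag was also tried as a covariate in the Cre and Egr2KO fit. The test was tried on simulated counts. One list of partner genes is not reported here.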

Additional observations from a re-analysis of the deposited data

Results flagged for a closer look

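In 4 cases 1 library of a Trem2KO gate stood far from the others of its group, each through very few reads. Fxyd6 had 0.209 CPM in 1 Trem2KO CD229neg library and 0.216 CPM in 1 Trem2KO CD229pos library, with no read in the other libraries of each group. Rnf186 had 0.108 CPM in 1 Trem2KO CD229neg library, and Asb11 had 0.294 CPM in 1 Trem2KO CD229pos library, again with no read in the others. In all, 14 checks of 1 gene in 1 group of 4 libraries were made. A group with reads in only 1 library is always marked by this check, and each of these 4 was such a group. The share marked by chance is therefore not known.

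Some differences had all libraries on 1 side in one comparison and all on the opposite side in another, and the difference between such comparisons was not tested. For Postn, Egr2KO lay above Cre in all libraries at baseline (log2 fold change 0.17) and below Cre in whole microglia (-0.48). The baseline libraries of these genotypes also differ in the PE150 tag. For Igf2r, Mef2aKO lay above Cre at baseline (1.70) and below Cre in Clec7apos (-0.53), CD229pos (-0.37) and CD11cpos cells (-0.33), and in edgeR's fit of all groups the baseline difference passed and the other 3 did not. In a fit of the compared groups alone the baseline difference did not pass (adjusted p = 0.329), while those in Clec7apos (0.0495) and CD11cpos cells (0.00944) did, and DESeq2 also called Clec7apos (0.0325). For Igf2r again, CD229pos cells lay above CD229neg cells in Egr2KO at 6 weeks (0.84) and in Mef2aKO baseline cells (2.30), and CD229pos cells lay below Clec7apos cells in Mef2aKO at 5 weeks (-0.42), where both gates have Clec7a.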

How the results depend on the processing

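Calls among the 9 genes numbered 13 for the diet steps, 14 for the Clec7a steps, 25 for the CD229 steps, 11 for Trem2 loss, 11 for Mef2a loss, 2 for Egr2 loss and 0 for the difference of the CD229 step. Shares of all genes called ran from 5.85% to 30.4% over the diet steps and 37.9% to 45.8% over the Clec7a steps. They ran from 0.15% to 48.8% over the CD229 steps and 0.577% to 52.5% for Trem2 loss. For Mef2a loss they were 3.70% to 5.53%, for Egr2 loss 0.182% to 2.46% and for the difference of steps 14.8%. Fits of only the groups compared gave 7 for diet, 12 for CD229 and 5 for Trem2 loss, where fewer libraries estimate the spread. For Egr2 loss the count was 6 without the filter on low counts and 1 with DESeq2, and the cause was not tested. With the PE150 tag as a covariate in the Cre and Egr2KO fit, there were 13 calls for diet, 25 for CD229 and 2 for Egr2 loss. Leaving out 1 library at a time, in 90 fits, gave 12 to 14 calls for diet, 12 to 15 for Clec7a, 21 to 26 for CD229, 10 to 12 for Trem2 loss, 9 to 12 for Mef2a loss, 1 to 3 for Egr2 loss and 0 to 0 for the difference of steps. With a replicate block there were 14, 14, 25, 12, 11, 3 and 0 calls in the same order, and the block changed the call of the genes named above only where stated. Same-numbered libraries exceeded a correlation of 0.1 in every pair only in the 6-week CD229 step. Lower values do not show that the libraries of other steps were unpaired.

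Over single genes, 1017 tests kept direction and side of the threshold under an alternative, 98 no longer passed, 50 newly passed and 0 reversed. Of the CD11c step folds, 401 stayed within their spread and 4 moved beyond it, to 3.17 for Stra6l in Cre at 5 weeks without 1 CD229pos library, 3.34 for Stra6l in Cre at 6 weeks, 5.10 for Gpr83 in Mef2aKO and 4.22 for Gpr83 in Egr2KO. Depth limits Asb11, Gpr83, Rnf186 and Klrb1a, whose levels outside CD11cpos cells rest on few reads. The bounds against 3 reads cover counting error only.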
